A study of Mus musculus with 5 samples.

Results

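Mouse genes with a numbered Zfp symbol encode zinc finger proteins, most of them DNA binding. The files held 326 such genes among 19061 gene rows. The 214 with a mean of at least 5 CPM (read counts scaled to library size) over all 5 libraries are described here, and 112 fell below that level. The genes were chosen by this mean over both groups, not by the difference between the groups. At the limit, Zfp398, Zfp707 and Zfp111 lay just inside with means of 5.001, 5.05 and 5.19 CPM, and Zfp956, Zfp937 and Zfp81 lay just outside with 4.91, 4.89 and 4.70 CPM. Of the genes left out, 83 had a mean between 1 and 5 CPM, 29 were under 1 CPM and 1 of those had no read in any library.

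RNA came from hearts of C57BL/6 mice with a calcineurin transgene, named MHC-CnATg in the labels, in which the alpha myosin heavy chain promoter drives expression in cardiomyocytes and the heart becomes severely hypertrophic. From 4 weeks of age the mice received vehicle (2 libraries) or JIB-04 at 50 mg/kg (3 libraries), with 3 doses per week, and hearts were collected at postnatal day 158. Every library is labelled as transgenic, and none without the transgene is used here. In JIB-04 replicate 3 the genotype is abbreviated with another letter in the title, while the genotype label is that of the others. JIB-04 inhibits Jumonji enzymes, which remove methyl groups from histones. The labels give no sex, litter, batch or date and nowhere state that the libraries are separate animals, so p-values measure only the spread between these libraries.

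In the typical member of this family, each zinc finger is a short loop in which a pair of cysteines and a pair of histidines hold a zinc ion, and fingers in tandem read DNA. Many members also carry a KRAB box, which recruits the corepressor Trim28 and, through it, the methyltransferase Setdb1, which methylates lysine 9 of histone H3 (H3K9). KRAB zinc finger genes lie in clusters that are themselves known to carry H3K9 methylation over their coding exons. The comparison asks whether the level of these genes shifted, over the family and by chromosome, when H3K9 and other Jumonji demethylases were inhibited. H3K9 methylation itself is not among the data used here.

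The zinc finger motif is shown first, as the coding sequence of the first finger in 3 members on which the results below turn (GENCODE M21 transcripts on GRCm38, given 5′ to 3′ on the coding strand). The capitals mark the codons of the cysteines and histidines that hold the zinc. Zfp146 lies at chr7:30162502-30162564 on the minus strand, Zfp212 at chr6:47931031-47931093 and Zfp612 at chr8:110088841-110088903, both on the plus strand, and each stretch lies within 1 exon.
Zfp146: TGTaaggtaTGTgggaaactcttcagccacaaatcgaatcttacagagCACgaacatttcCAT
Zfp212: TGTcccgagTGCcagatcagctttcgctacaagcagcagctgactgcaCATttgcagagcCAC
Zfp612: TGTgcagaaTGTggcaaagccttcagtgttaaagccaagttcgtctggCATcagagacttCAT

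The KRAB box is shown for Zfp612 and Zfp930, the members whose 95% intervals reached past 1.5-fold on the log2(CPM + 1) scale. The stretches lie at chr8:110083702-110083758 and chr8:69226388-69226444, both on the plus strand, and the capitals mark the codons of the fixed letters of the pattern.
Zfp612: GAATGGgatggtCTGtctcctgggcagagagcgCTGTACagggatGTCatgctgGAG
Zfp930: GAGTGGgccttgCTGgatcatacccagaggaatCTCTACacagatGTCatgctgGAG

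The translated coding sequences of all 214 genes were searched for these patterns. A KRAB box was found in 72 and not in 142. The pattern is strict and found none in Zfp568, which is known to carry a KRAB box, and a looser pattern, which found that one, was present in 81. The median number of fingers was 10, at 12 in the genes with the KRAB pattern and 8.5 in the others, and 178 genes had at least 5. Zfp142 had the most, with 36. No finger of this spacing was found in 5 genes, among them Zfp36, whose fingers are of another type.

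Most of these genes were weakly expressed in the heart. The median level was 14.3 CPM, 140 of 214 genes were under 20 CPM and 15 reached 50 CPM. Zfp106, an RNA-binding protein abundant in striated muscle, stood far above the rest with 999 and 1097 CPM in vehicle and 1009, 936 and 1002 CPM in JIB-04. Its values overlapped between the groups. Next in mean CPM were Zfp651 with 255, Zfp91 with 164 and Zfp706 with 109. Per kilobase of exon, Zfp106 was also first with 107 CPM, before Zfp651 with 40.1, Zfp91 with 29.6 and Zfp207 with 22.8, and the lowest was Zfp738 with 0.402.

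As a family, the expressed Zfp genes stayed close to their vehicle level. The log2 fold changes, on the log2(CPM + 1) scale, were centred on a median of 0.013 with quartiles of -0.05 and 0.08, against a median of -0.0092 over all 14414 genes tested and -0.019 over the 10563 genes with a mean of at least 5 CPM. They ran from -0.38 (Zfp612) to 0.25 (Zfp710). Of the 214, 121 (56.5%) had positive and 93 negative values, where 46.9% of all genes tested and 42.3% of those with at least 5 CPM were positive. The sign of the family median depended on the processing, since it was -0.0018 after quantile normalisation, -0.0057 when vehicle replicate 2 was left out and -0.0094 when JIB-04 replicate 1 was. In the same fits, in that order, all genes tested had medians of -0.012, -0.0026 and -0.017. With plain library totals the family median was 0.06, with 165 genes positive and 49 negative, while the median of all genes moved to 0.04. After quantile normalisation 104 were positive and 110 negative.

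**Figure D1:**
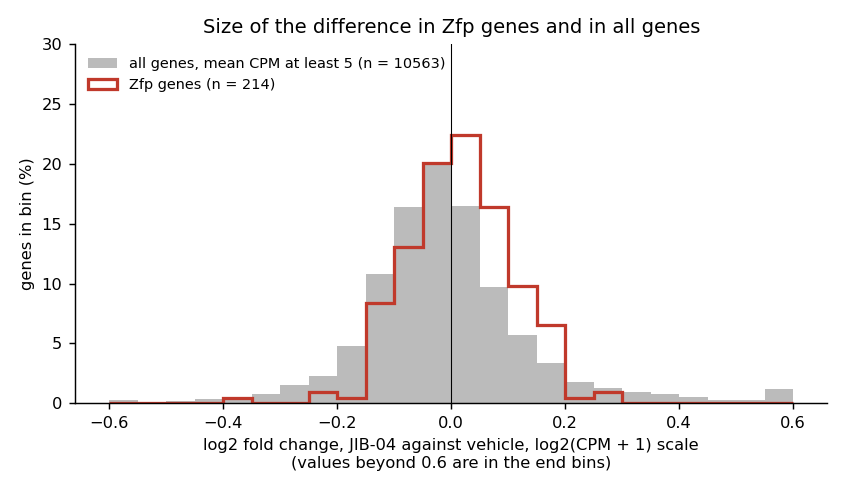
Share of genes (vertical axis, %) in each bin of log2 fold change between JIB-04 and vehicle (horizontal axis), for the 214 Zfp genes (red line) and all 10563 genes with a mean of at least 5 CPM (grey bars). The Zfp genes are centred on 0.013 and hold few values in the tails.

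Large differences were scarce among the members. An absolute log2 fold change above 0.2 was found for 6 of them (2.80%), against 17.1% of all genes tested and 13% of those with at least 5 CPM. A difference over 10% in mean CPM was found for 31 members, 26 higher and 5 lower, or 14.5% against 23.6% of genes with at least 5 CPM. No member passed limma at an adjusted p of 0.05 (smallest adjusted p = 0.721), and the share of all genes called was 0%. At an unadjusted p under 0.05, limma named 2 members (0.935%), Zfp146 higher and Zfp212 lower, against 6.44% of all genes tested, 3.93% higher and 2.51% lower. edgeR and DESeq2 on the recovered reads called 0 members after adjustment and named 3 (Zfp146, Zfp212 and Zfp710) and 1 (Zfp146) before it, against backgrounds of 6.56% and 5.58% of all genes tested. After adjustment edgeR called 0% and DESeq2 0.576% of all genes.

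The groups did not overlap in 38 members. Every JIB-04 library lay above both vehicle libraries in 25 (11.7%), against 10.7% of all genes tested and 8.97% of those with at least 5 CPM. It lay below both in 13 (6.07%), against 12% and 13.1%. The first share is near the background and the second is under it. With plain library totals the counts were 54 above and 5 below, and after quantile normalisation 15 members lay above and 19 below. The shares over all genes were counted in the main fit only, so these counts have no background beside them. With plain totals the median of all genes tested itself moved from -0.0092 to 0.04.

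The 95% intervals limit how large a shift could have been missed in single genes. Of 214 intervals, 212 lay within 1.5-fold in both directions on the log2(CPM + 1) scale. The exceptions were Zfp612, whose interval reached -0.79, and Zfp930, whose interval reached 0.59. This scale understates changes of low genes, so the limit in CPM is wider for them. The median distance from the estimate to the end of its interval was 0.24 on the log2 scale. Over the 5 libraries the median coefficient of variation of a member was 6.96%, and counting error alone gives 4.48%. For all genes of at least 5 CPM these medians were 7.05% and 3.04%. The median member had 498 reads per library, and the lowest single value was 134 reads.

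**Figure D2:**
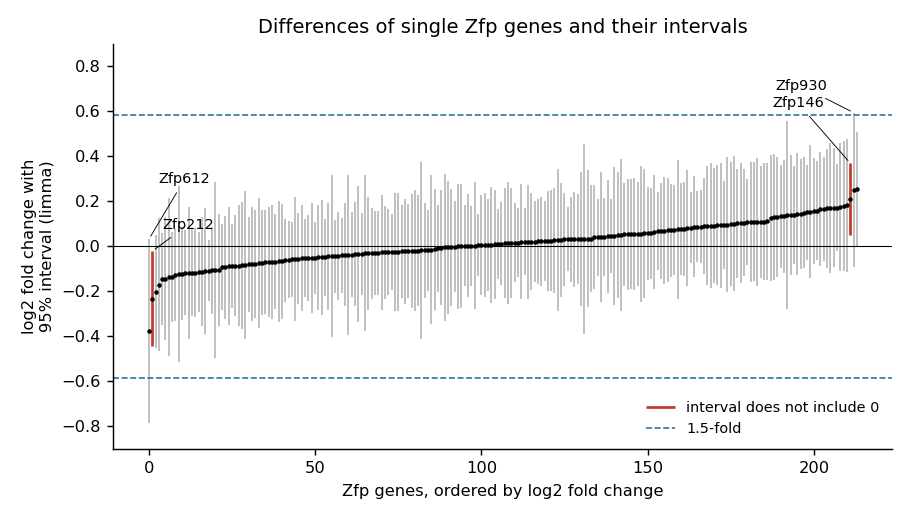
Log2 fold change of each of the 214 Zfp genes (points, in order of size) with its 95% interval from limma (lines). Dashed lines mark 1.5-fold on the log2(CPM + 1) scale, 2 intervals cross them, and the 2 red intervals (Zfp212 and Zfp146) do not include 0.

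Library by library, the family did not separate the groups. The median deviation of the members from their vehicle mean was 0.0069 and -0.0069 in the vehicle libraries and 0.05, -0.04 and 0.02 in JIB-04 replicates 1, 2 and 3. The vehicle values mirror each other because they are taken from their own mean. The standard deviation of these library medians, pooled within the groups, was 0.04, larger than the family median. Over all genes of at least 5 CPM the library medians were -0.0091 and 0.0091 in vehicle and -0.00074, -0.033 and -0.026 in JIB-04. JIB-04 replicate 1 was the highest library for 81 members (37.9%, against 24.6% of all genes of at least 5 CPM), and JIB-04 replicate 2 the lowest for 90 (42.1% against 33.3%). The level was higher in replicate 1 than in replicate 2 in 160 members (74.8% against 57.0%), with a median log2 difference of 0.10 against 0.03. This pair was singled out after its values were seen.

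These libraries also differed in marker genes of heart cell types. The summed level of 8 cardiomyocyte markers was 77779 CPM in JIB-04 replicate 2, against 92079 to 104989 CPM in vehicle and 104121 and 93933 CPM in JIB-04 replicates 1 and 3. That of 7 fibroblast markers was 3464 CPM in JIB-04 replicate 2, against 2175 to 2466 CPM in vehicle and 2352 and 3090 CPM in the other JIB-04 libraries. Of 7 macrophage markers, 4 lay above both vehicle libraries in every JIB-04 library (sum 101 to 140 CPM in vehicle and 140 to 226 CPM in JIB-04). Of 7 red blood cell markers 6 lay below (4602 to 7015 and 1690 to 3364 CPM). Over all genes tested 10.7% lay above and 12% below. Of 7 endothelial and 6 smooth muscle and pericyte markers, 0 lay above and 0 below. JIB-04 replicate 2 had the highest endothelial sum (817 CPM, against 671 to 694 CPM in vehicle). It had the lowest smooth muscle and pericyte sum (1215 CPM, against 1329 to 1715 CPM in vehicle). Of 7 lymphocyte markers, 1 lay above and 0 below, and their sum was 3.19 to 3.36 CPM in vehicle and 3.67 to 5.97 CPM in JIB-04. None of the markers was at 0 in the means, and the lowest was a lymphocyte marker with 0.279 CPM. Fewer cells of a type and less RNA per cell cannot be told apart in whole hearts, and the part of cell make-up in the levels of the Zfp genes was not tested. Library depth was similar, between 32152168 and 37002846 reads.

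**Figure D3:**
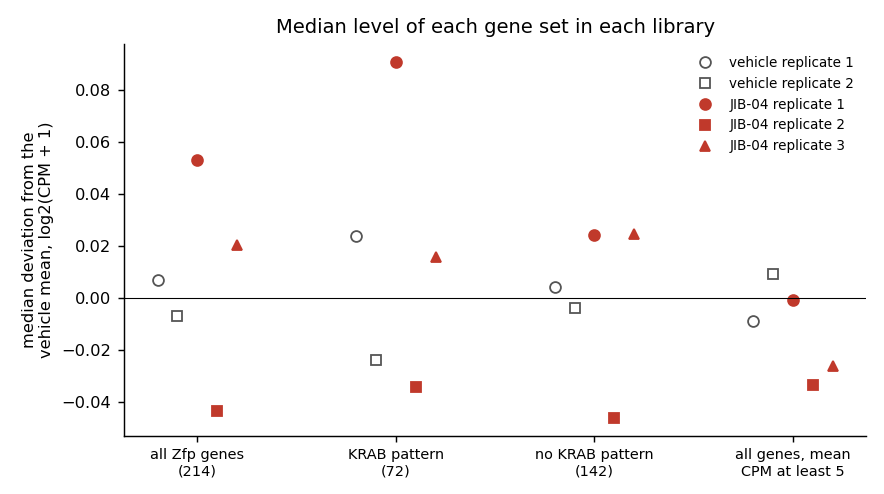
Median deviation from the vehicle mean on the log2(CPM + 1) scale (vertical axis) in each library for 4 gene sets. In each Zfp set JIB-04 replicate 2 lies below both vehicle libraries and JIB-04 replicate 1 above them. In all genes of at least 5 CPM, JIB-04 replicates 2 and 3 lie below both vehicle libraries and replicate 1 lies between them.

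Members with the KRAB pattern had slightly more positive values than the others. Their median log2 fold change was 0.03 over 72 genes, with 46 positive, 12 in which every JIB-04 library was above vehicle and 4 in which every JIB-04 library was below. These are 16.7% and 5.56% of the KRAB genes, against 10.7% and 12% of all genes tested, and 8.97% and 13.1% of those with at least 5 CPM. The 142 other members had a median of 0.0048, with 75 positive, 13 above (9.15%) and 9 below (6.34%). With the looser pattern the medians were 0.04 and 0.0032. No gene with the KRAB pattern reached an unadjusted p under 0.05 with limma. The library medians of the KRAB genes were 0.02 and -0.02 in vehicle and 0.09, -0.03 and 0.02 in JIB-04, so the groups overlapped, and without JIB-04 replicate 1 the KRAB median was -0.0012. JIB-04 replicate 1 exceeded replicate 2 in 61 of the 72 KRAB genes and in 99 of the 142 others. The KRAB genes were also more weakly expressed, with a median level of 11.2 CPM against 18.0 CPM in the others. The difference between the KRAB and other members, and the part of expression level in it, was not tested.

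Weakly expressed Zfp genes and other zinc finger families gave similar medians. The 94 Zfp genes under 5 CPM that could be tested had a median of 0.04, with 16 above (17.02%), 4 below (4.26%) and 1 at an unadjusted p under 0.05 with limma (1.06%). The shares over all genes tested were 10.7%, 12% and 6.44%, and over those with at least 5 CPM 8.97%, 13.1% and 5.65%. Shares over all genes under 5 CPM alone were not counted, so the 94 have no background of like level. For 62 Zbtb, Zscan, Zkscan and Klf genes of at least 5 CPM, which encode zinc finger factors of other families, the median was 0.0084, with 4 above (6.45%), 9 below (14.5%) and 3 at an unadjusted p under 0.05 (4.84%). Among the members sets of low, middle and high level, of equal size, had medians of 0.02, 0.03 and -0.01.

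Single members were taken in order of p from those whose groups did not overlap, and none of them passed after adjustment. Zfp146, which consists almost entirely of zinc fingers, was at 34.8 and 34.0 CPM in vehicle and 38.6, 41.7 and 39.6 CPM in JIB-04. All JIB-04 libraries were higher, by 16.2% in the mean, with a log2 fold change of 0.21 and an SE of 0.067 (limma adjusted p = 0.721). The estimate was 0.18 to 0.26 in the fits with another setting or with 1 library left out. At an unadjusted p under 0.05, no member was named by limma with vehicle replicate 1 or 2 left out or with a replicate block, and the highest unadjusted p for Zfp146 was 0.103. Zfp146 is the gene whose first finger is printed above, at chr7:30161267-30169727.

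Zfp710 was at 23.6 and 22.0 CPM in vehicle and 23.9, 29.8 and 28.6 CPM in JIB-04. The estimated log2 fold change reached 0.25, with an SE of 0.11 and a limma adjusted p = 0.787, but JIB-04 replicate 1 lay close to the higher vehicle library. The row overlaps that of Gm21057 on the other strand, and whether the counting used strand is not given in the sources used here. Zfp608 was at 18.97 and 20.9 CPM in vehicle and 22.4, 21.8 and 23.5 CPM in JIB-04 (log2 fold change 0.17), and 0.11 without vehicle replicate 1. The other 5 with positive values were Zfp513, Zfp87, Zfp52, Zfp324 and Zfp827, with log2 fold changes of 0.16, 0.17, 0.15, 0.16 and 0.17. Of these Zfp87, Zfp52 and Zfp324 have the KRAB pattern. Zfp827, known to bring the nucleosome remodelling complex NuRD to chromatin, was at 22.0 and 20.6 CPM in vehicle and 27.7, 22.8 and 22.1 CPM in JIB-04, and its value was 0.08 without JIB-04 replicate 1. For Zfp52, the value was 0.08 without vehicle replicate 2.

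Among members with negative values, Zfp212 was at 12.1 and 12.8 CPM in vehicle and 10.2, 10.3 and 10.8 CPM in JIB-04. The groups were apart by more than the range within either, with a log2 fold change of -0.23 and an SE of 0.09 (limma adjusted p = 0.748). Zfp612 had the largest difference of all members and also the largest spread, with a coefficient of variation of 20.2%. It was at 28.5 and 28.0 CPM in vehicle and 26.7, 16.9 and 22.0 CPM in JIB-04, so that the vehicle libraries were close together and the JIB-04 libraries were not. The estimate was -0.38, with an SE of 0.17 and a limma adjusted p = 0.813, and -0.21 without JIB-04 replicate 2.

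Zfp704 was at 56.7 and 57.8 CPM in vehicle and 53.0, 52.8 and 53.3 CPM in JIB-04, a small difference (log2 fold change -0.11) with little spread. The other 5 were Zfp963, Zfp830, Zfp654, Zfp790 and Zfp775, with log2 fold changes of -0.20, -0.15, -0.14, -0.12 and -0.12. Zfp963 shared 40.4% of its 50-base stretches with other genes, chiefly Gm20422, so its reads may be split between rows. Without vehicle replicate 2 the value was -0.09 for Zfp830 and -0.06 for Zfp654, and without vehicle replicate 1 it was -0.07 for Zfp790.

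**Figure D4:**
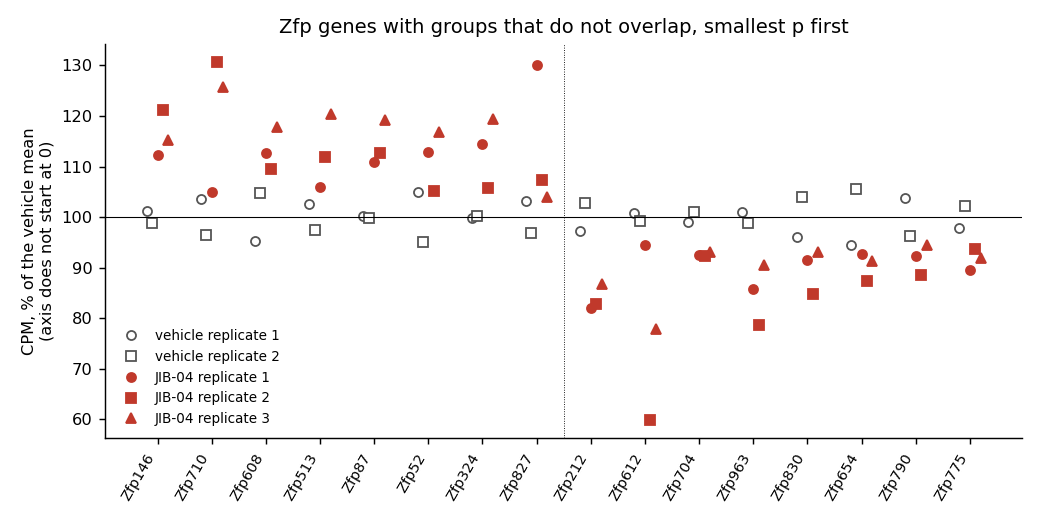
Level in each library as a percentage of the gene's vehicle mean (vertical axis, which does not start at 0) for the 8 members with the smallest p in each direction among those whose groups do not overlap. For Zfp612 the JIB-04 libraries are spread widely, at 26.7, 16.9 and 22.0 CPM, and for Zfp704 they lie close together.

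Zfp proteins with work in RNA, ribosomes or protein turnover, on a list of 11 of which 10 are members, were at a median of -0.02, with 5 positive and 5 negative. In 1 of them, Zfp622, a factor in maturation of the large ribosomal subunit, every JIB-04 library was below vehicle, at 21.0 and 20.3 against 20.1, 19.98 and 19.7 CPM. This is 10% of these members, under the 12% of all genes tested and 13.1% of those with at least 5 CPM. Zfp598, which marks collided ribosomes with ubiquitin, was at 41.6 and 42.5 CPM in vehicle and 38.6, 41.1 and 42.5 CPM in JIB-04. Zfp91, a ubiquitin ligase, was at 159 and 165 CPM in vehicle and 158, 178 and 158 CPM in JIB-04. The values of both overlapped between the groups. Zfp207, which helps chromosomes attach to the spindle, had 108 and 109 CPM in vehicle and 99.97, 104 and 113 CPM in JIB-04. Zfp346, a binder of double-stranded RNA, had the widest spread on this list after Zfp36 relative to its level (coefficient of variation 13.6% and 17.6%), from 36.5 to 53.4 CPM within JIB-04 alone.

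Of 3 genes on a list of those studied in cardiac hypertrophy, 2 are members. Zfp260, a transcription factor that acts downstream of alpha-1 adrenergic signalling in cardiomyocytes, was at 50.7 and 49.1 CPM in vehicle and 50.4, 50.3 and 49.6 CPM in JIB-04. The 5 libraries lay within a narrow range, with a log2 fold change of 0.0059 and a 95% interval of -0.13 to 0.15. Zfp36, also called tristetraprolin, speeds the decay of cytokine mRNAs, and it was at 41.1 and 50.0 CPM in vehicle and 43.1, 39.2 and 59.3 CPM in JIB-04. Its spread within JIB-04 covered the whole vehicle range.

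Members known from imprinting or the silencing of retroelements numbered 5 of 8 on the list. Zfp445, which protects imprinted methylation, was at 78.4 and 75.8 CPM in vehicle and 76.9, 64.0 and 71.4 CPM in JIB-04. Zfp809, which silences endogenous retroviruses, was at 15.8 and 14.1 CPM in vehicle and 13.6, 12.8 and 15.1 CPM in JIB-04. Zfp568, a repressor of a placental Igf2 transcript, was among the 15 genes of at least 50 CPM, at 94.0 and 90.6 CPM in vehicle and 93.0, 102 and 99.1 CPM in JIB-04. In these 3 genes the groups overlapped, with log2 fold changes of -0.13, -0.10 and 0.09. Zfp708 and Zfp932 shared 100% and 55.5% of their 50-base stretches with other genes, so their values of -0.11 and 0.03 are uncertain.

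Of the 22 members on a list of transcription regulators without a KRAB box, 14 had positive values and the median was 0.0080. The 3 lowest were Zfp362, Zfp704 and Zfp592, at -0.11, -0.11 and -0.09, and the 3 highest were Zfp827, Zfp462 and Zfp335, at 0.17, 0.15 and 0.10. Zfp335, a partner of a complex that methylates lysine 4 of histone H3, was at 27.1 and 31.0 CPM in vehicle and 30.1, 31.2 and 31.8 CPM in JIB-04. Zfp462, which has 33 fingers, was at 11.96 and 9.25 CPM in vehicle and 12.3, 11.2 and 11.96 CPM in JIB-04.

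By chromosome, the medians ran from -0.049 to 0.055 wherever at least 5 members were found. Members were found on 20 chromosomes, with 51 of 84 Zfp rows on chromosome 7, 24 of 38 on chromosome 17, 19 of 23 on chromosome 8, 14 each on chromosomes 5 and 9, 13 of 32 on chromosome 13 and 12 on chromosome 6. The median log2 fold change was 0.014 on chromosome 7, where all genes of at least 5 CPM had -0.015. It was 0.018 on chromosome 17 (-0.024 for all genes), 0.03 on chromosome 8 (-0.017), 0.016 on chromosome 5 (-0.028) and 0.0093 on chromosome 9 (-0.017). On chromosomes 13, 2 and 15 it was 0.051, 0.055 and 0.050 and on chromosome 16 it was -0.049, over 13, 9, 7 and 5 members. Of the chromosomes with fewer members, X had the highest median (0.10, 3 members) and 10 the lowest (-0.14, 1 member, Zfp938). In Zfp938 all JIB-04 values were under the vehicle values, but replicate 1 only just. JIB-04 replicates 1, 2 and 3 stood at -0.0017, -0.11 and -0.31 from the vehicle mean.

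Of the 13 chromosomes with at least 5 members, 12 had a Zfp median above that of all genes on the same chromosome, chromosome 16 being the exception. The count was 7 after quantile normalisation and 7 without vehicle replicate 2. On none of the 13 did the JIB-04 library medians all lie on 1 side of both vehicle medians. On chromosome 13, for example, the members stood at 0.04 and -0.04 in vehicle and at 0.09, 0.08 and -0.05 in JIB-04.

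With 1 library left out in turn, the sign of the median changed on most of these chromosomes. Without vehicle replicate 2 it was negative on chromosomes 7 (-0.00010), 17 (-0.0027), 8 (-0.020), 5 (-0.00096), 9 (-0.03) and 13 (-0.02), and positive on chromosome 6 (0.0010). Without JIB-04 replicate 1 it was negative on chromosomes 17 (-0.0035), 8 (-0.0067), 5 (-0.04) and 18 (-0.0038), and without JIB-04 replicate 3 on chromosomes 8 (-0.019), 9 (-0.0085) and 18 (-0.00073). Without JIB-04 replicate 2 it was positive on chromosomes 6 (0.0087) and 11 (0.03), and without vehicle replicate 1 it was positive on 11 (0.013) and negative on 18 (-0.020). The sign was kept on chromosomes 2 (0.0049 to 0.07), 4 (0.0085 to 0.04), 15 (0.019 to 0.06) and 16 (-0.13 to -0.03), but the value moved by over 1.5 times. The value moved most without vehicle replicate 1 on chromosomes 2 and 4 and without JIB-04 replicate 1 on chromosomes 15 and 16.

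The highest and lowest members on chromosome 7 were Zfp710 and Zfp14 (0.25 and -0.17), on chromosome 17 Zfp563 and Zfp523 (0.18 and -0.11), on chromosome 8 Zfp930 and Zfp612 (0.25 and -0.38) and on chromosome 5 Zfp513 and Zfp512 (0.16 and -0.11). Several of these values rest on 1 library. Without vehicle replicate 2 Zfp563 was at 0.06, without JIB-04 replicate 2 Zfp523 was at -0.06 and Zfp14 at -0.09, and without vehicle replicate 1 Zfp512 was at -0.05. Zfp930, a KRAB gene, was at 7.85 and 7.16 CPM in vehicle and 10.3, 7.53 and 9.80 CPM in JIB-04. JIB-04 replicate 2 lay between the vehicle libraries (SE 0.14, limma adjusted p = 0.821).

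**Figure D5:**
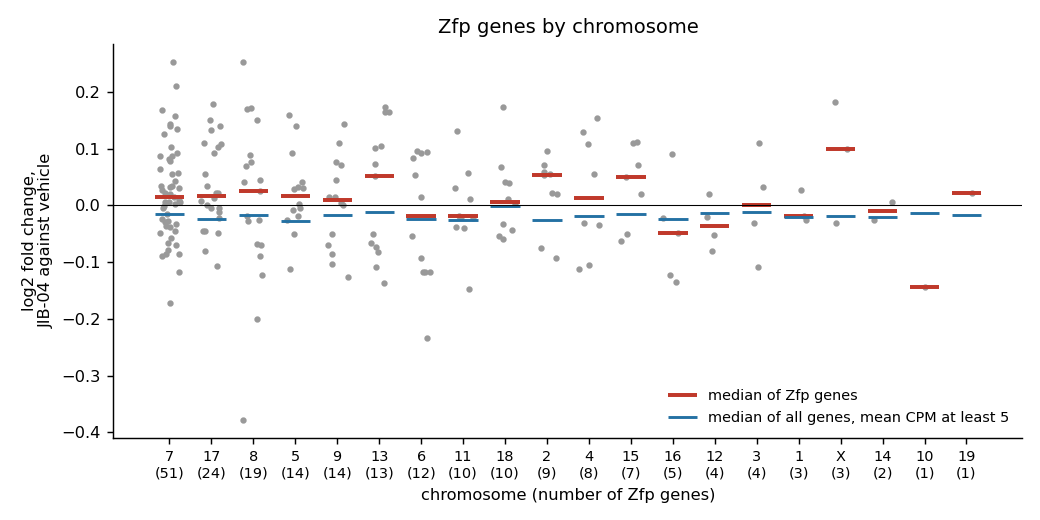
Log2 fold change of each Zfp gene (grey points) by chromosome, ordered by number of members, with the median of the Zfp genes (red) and of all genes of at least 5 CPM (blue) on that chromosome. The Zfp medians of the 13 chromosomes with at least 5 members run from -0.049 to 0.055.

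Clusters, taken as runs of Zfp genes whose neighbouring starts lie within 250 kb, held at least 5 members in 9 places with 60 members together. The cluster with most members, at chr7:29768551-30169727, holds 15 Zfp rows and 11 members (Zfp84, Zfp30, Zfp790, Zfp420, Zfp27, Zfp383, Zfp74, Zfp568, Zfp14, Zfp260 and Zfp146). Its median was 0.03, with 8 values positive, and its members did not move together. Zfp146 at 1 end had 0.21, the nearest other member, Zfp260, had 0.0059, and the next, Zfp14, had -0.17 (-0.09 without JIB-04 replicate 2).

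The highest cluster median, 0.10, belonged to chr13:67038593-67827000, with 7 members of 19 rows. In 4 of these (Zfp759, Zfp87, Zfp748 and Zfp738) every JIB-04 library was above vehicle and in none below, where 11.2% of all genes of at least 5 CPM on chromosome 13 lay above and 11.0% below. Zfp748 was at 6.91 and 6.25 CPM in vehicle and 7.95, 7.02 and 7.53 CPM in JIB-04. Zfp759 was at 6.29 and 5.89 CPM in vehicle and 7.92, 6.40 and 6.73 CPM in JIB-04. The other 3 members, Zfp708, Zfp58 and Zfp65, had -0.11, -0.08 and -0.07, and Zfp708 and Zfp58 share over 50% of their stretches with other genes. At chr9:20345135-20595193 all 5 members (Zfp560, Zfp26, Zfp426, Zfp266 and Zfp846) have the KRAB pattern and had positive values, with a median of 0.07. In 1 of them (Zfp560) every JIB-04 library was above vehicle, as in 8.50% of all genes of at least 5 CPM on chromosome 9. These clusters were singled out after their values were seen, and the smallest p among their members was 0.135 (Zfp87, limma, unadjusted).

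Similar sequence limits the counting of some members. Over 5% of the 50-base stretches were shared with another gene in 30 members and over 50% in 5. The median was 0.017 in these 30 genes and 0.011 in the other 184. Another row overlapped 17 members, 5 on the same and 13 on the other strand, and their median was -0.03.

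Promoter sequences (RefSeq, GRCm38.p6, 250 bases before to 50 after the start site) were matched for 172 members and for 7874 of the genes of at least 5 CPM. The Zfp promoters held a median of 17 CpG pairs and 56.7% G or C, against 22 and 61.7% over those genes. The motif ACTACAATT, part of the element bound by Zfp143, was present on either strand in 8 members (4.65%) and in 68 of the 7874 (0.864%). TGACGTCA, the cAMP response element, was found in 3 (1.74% against 3.54%), and AAGATGGC, a YY1 motif, in 12 (6.98% against 5.17%), both strands being searched. None of the 8 held either of the other motifs. A match describes the letters and is not a bound site.

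The windows with ACTACAATT are shown for 7 of the 8, since this motif was found in a larger share of Zfp promoters than of all 7874, which include Zfp genes. The motif and its length were chosen after the data were seen. In Zfp111 it lies at the edge of the promoter sequence. They are given 5′ to 3′ on the strand that carries the motif, which is in capitals. The windows lie at chr13:67500532-67500561 (plus), chr8:111643409-111643438 (minus), chr11:58307011-58307040 (plus), chr7:24081866-24081895 (minus), chr7:12881154-12881183 (minus), chr7:24270338-24270367 (minus) and chr4:147848431-147848460 (minus), in the order of the genes here.
Zfp58: cagtggccagACTACAATTcccacaagtct
Zfp1: gaggtgtaggACTACAATTcccataatgcc
Zfp692: actaaggctaACTACAATTcccggcaggct
Zfp180: gctcaatggaACTACAATTcccagaactct
Zfp128: ggacactgagACTACAATTcccagaaggcc
Zfp93: tggcgttggaACTACAATTcccagaattcc
Zfp933: tttccaaagaACTACAATTcccagcattcc

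The end of the motif farther from the start site lay 13 to 69 bases before that site in these 7 genes. Their log2 fold changes were -0.08, -0.03, -0.02, 0.0065, 0.04, 0.13 and 0.13 in the order printed and -0.014 for Zfp111, and in none of the 8 did the groups separate. Zfp180 was the highest of them, at 31.4 and 29.96 CPM in vehicle and 28.2, 34.2 and 30.4 CPM in JIB-04. Zfp143 itself, an activator at many promoters, was at 12.6 and 14.0 CPM in vehicle and 12.3, 13.7 and 14.3 CPM in JIB-04.

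On the list of genes for KRAB corepression and H3K9 methylation, Setdb2 alone reached an unadjusted p under 0.05 with limma. Of 29 such genes tested, 0 passed limma after adjustment, 1 was higher and 3 were lower in every JIB-04 library (3.45% and 10.3%, against 10.7% and 12% of all genes tested), and the median was 0.0038. Trim28 was at 80.1 and 72.9 CPM in vehicle and 74.9, 75.1 and 76.0 CPM in JIB-04, and Setdb1 at 30.05 and 30.4 CPM in vehicle and 33.5, 29.9 and 33.3 CPM in JIB-04. Both overlapped between the groups. Setdb2, which belongs to the same methyltransferase family as Setdb1, was at 12.4 and 13.0 CPM in vehicle and 7.29, 6.05 and 7.25 CPM in JIB-04, with a limma p of 2.28e-04 (adjusted p = 0.371), and DESeq2 called it lower (adjusted p = 1.04e-04). Of 16 Jumonji demethylases tested, 0 reached an unadjusted p under 0.05 with limma, 3 were higher and 2 lower in every JIB-04 library (18.8% and 12.5%, against the same background), and the median was -0.011. Kdm4a, a demethylase of H3K9, was at 56.4 and 59.0 CPM in vehicle and 55.4, 53.4 and 53.1 CPM in JIB-04. Its paralogues Kdm4b and Kdm4c had log2 fold changes of -0.08 and 0.0026, and the H3K4 demethylases Kdm5a, Kdm5b and Kdm5c had -0.03, 0.04 and 0.05.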

How the data were processed

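The 5 stranded mRNA libraries were made from mouse hearts, per the labels. The submitters' processing notes list edgeR, featureCounts, Subread, Picard 1.127, TopHat2 2.0.12 and FastQC 0.11.2, and the build mm10, with no role for each. The deposited values, headed CPM, were treated as a normalised signal, since they sum to 954981 to 1046902. All values (100%) were whole multiples, within 0.01, of the value of 1 read in their library, so reads were recovered. 3 reads equal 0.0804 to 0.0977 CPM. The 1 blank row was left out.

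The trend method of limma (3.58.1, R 4.3.3) was applied to log2(CPM + 1) over the 14414 genes kept by edgeR's filterByExpr (at least 10 reads), with Benjamini-Hochberg adjustment and 3 residual degrees of freedom. This scale understates changes of low genes. All 214 members passed the filter, and 3 had a vehicle mean under 5 CPM. edgeR quasi-likelihood (4.0.16) and DESeq2 (1.42.0) on the recovered reads, other pseudocounts, filters, scalings and membership limits, and leaving out each library were alternatives. The fitting script was tested on simulated data.

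Members, gene lists and naming rules were chosen with earlier results of these data known, so no test was run over a list. Named were the 8 members with the smallest p in each direction among those with groups that do not overlap, the 4 highest by level and per length, those at the limit of 5 CPM, the extremes of 4 chromosomes, 3 role lists, the largest cluster, the extremes of the transcription regulators and enzymes of the pathway lists. KRAB boxes and fingers were sought in translations of the longest GENCODE M21 coding transcripts, where RefSeq proteins had been planned.
The promoter motifs, and the length of the Zfp143 motif, were chosen after the data were seen.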

Additional observations from a re-analysis of the deposited data

How the results depend on the processing

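Adjusted calls among the Zfp genes numbered 0 in the fits with limma, edgeR and DESeq2, and in each of the 5 fits that left out 1 library. Over all genes DESeq2 called 67 higher and 16 lower, and limma called 27 higher and 2 lower without JIB-04 replicate 1 (range 0 to 27 and 0 to 2 over libraries left out). Plain library totals gave a family median of 0.063, 49 negative values, 54 members above and 5 below, and a median of 0.055 for members without the KRAB pattern. Quantile normalisation gave 15 members above and 19 below, and 7 chromosomes above the median of all genes. With a limit of 10 CPM, 148 genes remained and 14 lay above. Leaving out a library gave 33 to 60 members above and 16 to 44 below, where fewer libraries have to separate. The shares of all genes above and below were counted in the main fit only, so the counts above and below given here have no background. With a library left out there were 7 to 12 chromosomes, for which the cause was not tested, and a family median from -0.0094 to 0.03. At an unadjusted p under 0.05, 0 to 7 members were named. The labels share replicate numbers only, so libraries were not taken as pairs. Same-numbered libraries correlated at -0.133 and -0.135 over their deviations. With 2 vehicle libraries the vehicle deviations mirror each other, so these correlations cannot decide on pairing. With a replicate block, 0 genes were called and the family median was 0.0099. Depth limits single genes, with a median counting error of 4.48% for each value, and 2 vehicle libraries limit every comparison.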
